A study of Mus musculus with 12 samples.

Results

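The genes described here are 9 transcription factors of the primitive streak and of the posterior mesoderm that leaves it: Tbxt, Evx1, Cdx1, Cdx2, Cdx4, Mixl1, Eomes, Mesp1 and Tbx6. A gene was taken from the arrays where a probe set, the group of short probes that measures 1 transcript, was annotated with that gene alone, and where a gene had more than 1, the brightest on average stood for it. Of the 9 genes, 8 had such a probe set, with 10 probe sets between them, out of 18194 genes in all. Tbxt, also written T, had none in the annotation used and was not analysed here. Of the 8 genes, 6 (Evx1, Cdx1, Cdx2, Eomes, Mesp1 and Tbx6) passed the filter on dim values and were among the 13436 genes tested, while Cdx4 and Mixl1 did not pass and are given by their values.

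The primitive streak is the groove at the posterior side of the gastrulating embryo through which epiblast cells leave to become mesoderm and endoderm. WNT, Nodal, BMP and FGF signals set it up, and T-box, caudal and other homeobox factors act downstream of them. In the mouse, primordial germ cells (PGCs) arise from posterior epiblast beside the streak, where cells that become germ cells first share part of this mesodermal programme with their somatic neighbours and then shut it down.

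The study measured expression in mouse germ cells made in culture or taken from embryos, on 12 arrays in 6 groups of 2. PGC-like cells (PGCLCs) were induced from embryonic stem cells of C57BL/6 background that carried Blimp1-mVenus and stella-ECFP (BVSC): female cells at day 3 (d3), female cells at day 6 (d6 female), female d3 cells followed by 6 days in aggregates with somatic cells of female E12.5 gonads (d3ag6), and male cells at day 6 (d6 male). PGCs came from embryos of stella-EGFP C57BL/6 fathers and wild-type BDF1 mothers, as female PGCs at E12.5 and as PGCs of unknown sex at E9.5. Blimp1 is the older name of Prdm1 and stella that of Dppa3, both germ cell genes. All cells were sorted on their reporters, so every group holds cells that switched on a germ cell reporter, and PGCLCs and PGCs differed in reporter and strain as well as in origin. The labels do not say how many stem cell lines, or how many embryos per sample, were used.

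The values are log2 signal, and a difference is a difference of group means on that scale with its standard error (SE). A gene was called changed at an adjusted p under 0.05 in limma, a linear model fitted across all genes, and n was 2 arrays in every group. The labels call the arrays biological replicates without saying whether they came from separate cultures or litters. The p-values rest on the spread between replicate arrays, pooled over all 6 groups and drawn toward that of other genes. They reach no further than whatever separates these replicates, and the small number of arrays limits the precision. No detection calls were used. The level 4.81, the median of all values, is therefore used to mark dim values, and the size of a difference that involves a mean below it is imprecise. Signal depends on the probe set, so levels are compared between groups and not between genes.

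The 11 germ cell genes looked at as markers, Prdm1, Dppa3, Tfap2c and Nanos3 among them, were above 4.81 on both arrays of every group. Prdm1 and Dppa3 are the genes of the sorting reporters, and 4.81 is only the median of all values. These levels therefore do not measure the purity of the cells. The signal of markers of other cells differed between groups. No marker was at 0 on any array, but without detection calls a signal above 0 does not show that a marker was expressed. The summed signal of 11 blood and macrophage markers, on a linear scale, was 2206 to 2709 in d3ag6 and 7264 to 16124 in E9.5, against 339 to 790 on the arrays of the other groups. In E9.5 the embryonic globin Hbb-y had log2 signals of 12.54 and 11.42, and in d3ag6 the lysozyme gene Lyz1 had 9.26 and 9.56. The labels give 8 arrays the code EA1013 (d3, d6 female, d3ag6, E12.5). For E9.5 and for d6 male, 1 array has the code EA0831 and 1 the code EA0842. Code and group therefore cannot be told apart where d6 female is set against E9.5 or d6 male, or E12.5 against E9.5.

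Evx1 and Cdx2 were the members called in these comparisons in the main fit, with the brightest probe set of each gene. Under other settings, given below, other members were called too. Both Evx1 and Cdx2 lie in homeobox families that mark the posterior end of the embryo. Evx1 (probe set 1421627_at) is an even-skipped homeobox gene on chromosome 6, at 52313498 to 52318389 of the mouse build GRCm38.p6, and is known from the posterior streak. Cdx2 (probe set 1422075_at) is a caudal homeobox gene on chromosome 5, at 147300900 to 147307249, known from the tail end of the embryo and from trophoblast. Coordinates come from the RefSeq gene table, and the build behind the probe sets was not given in the sources used here. The 250 bases before the start of both genes, from RefSeq on GRCm38.p6, are printed because these members were called in the main fit, and capitals mark a T-box motif. The Evx1 stretch is chr6:52313248-52313497 on the plus strand and the Cdx2 stretch chr5:147307250-147307499 on the minus strand, each 5′ to 3′.
Evx1: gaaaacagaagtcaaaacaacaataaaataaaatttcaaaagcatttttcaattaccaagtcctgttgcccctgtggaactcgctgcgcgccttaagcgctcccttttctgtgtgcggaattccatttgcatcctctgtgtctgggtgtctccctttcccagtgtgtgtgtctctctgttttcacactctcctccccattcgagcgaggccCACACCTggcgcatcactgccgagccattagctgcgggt
Cdx2: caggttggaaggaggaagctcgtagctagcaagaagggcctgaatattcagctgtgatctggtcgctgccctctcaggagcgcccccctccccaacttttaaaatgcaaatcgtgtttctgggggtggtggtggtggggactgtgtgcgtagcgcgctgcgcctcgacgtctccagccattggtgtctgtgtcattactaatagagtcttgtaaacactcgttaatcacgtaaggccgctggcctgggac
The Evx1 stretch held 1 T-box motif, AGGTGTG, on the opposite strand, where it reads CACACCT. The RefSeq table held the promoters of 7 members (not Mixl1 or Cdx1) among 27025 of this length, of which 5.14% had that motif on either strand, Evx1 alone among the 7. The shorter AGGTGT, which lies within it, stood in the promoters of Evx1, Mesp1, Tbxt and Cdx4 and in 12.0% of all promoters. A TCF/LEF motif, CTTTGAT or CTTTGAA, through which WNT signals act, stood in those of Mesp1 and Tbxt and in 7.67% of all promoters. The caudal motif TTTATGA was in none of the member promoters searched and in 3.48% of all, and the shorter TTTATG was in that of Tbxt and in 11.1% of all. The Cdx2 stretch held none of these motifs, and a match or its absence is a description of these letters only. The GC content was 49.6% for Evx1 and 55.2% for Cdx2.

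Evx1 had the widest range of group means among the members, 4.52 on the log2 scale. It stood at 8.60 and 8.76 in d3, at 5.98 and 6.77 in d6 female, and at 4.02 and 4.30 in d3ag6. It stood at 7.02 and 6.93 in d6 male, at 6.53 and 6.81 in E12.5 and at 7.24 and 7.51 in E9.5. The d3 arrays were the highest of the 12 and the d3ag6 arrays the lowest, both apart from every other group, and the d3ag6 arrays were the only ones under 4.81. In the order of means, d3 was followed by E9.5, d6 male, E12.5, d6 female and d3ag6, and of these neighbours only E12.5 and d6 female overlapped.

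Cdx2 had levels of 7.40 and 7.81 in d3, 5.83 and 5.70 in d6 female, and 4.24 and 5.09 in d3ag6. Its levels were 5.18 and 4.79 in d6 male, 6.53 and 7.06 in E12.5 and 7.11 and 7.47 in E9.5. For Cdx2, d3 and E9.5 stood together at the top with overlapping arrays, E12.5 followed, and the 3 later PGCLC groups lay below all embryonic arrays. At the low end d6 male and d3ag6 overlapped, and 1 array of each lay under 4.81. The Evx1 order differs from this at d6 male, which lay above E12.5 for Evx1 and below d6 female for Cdx2.

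**Figure D1:**
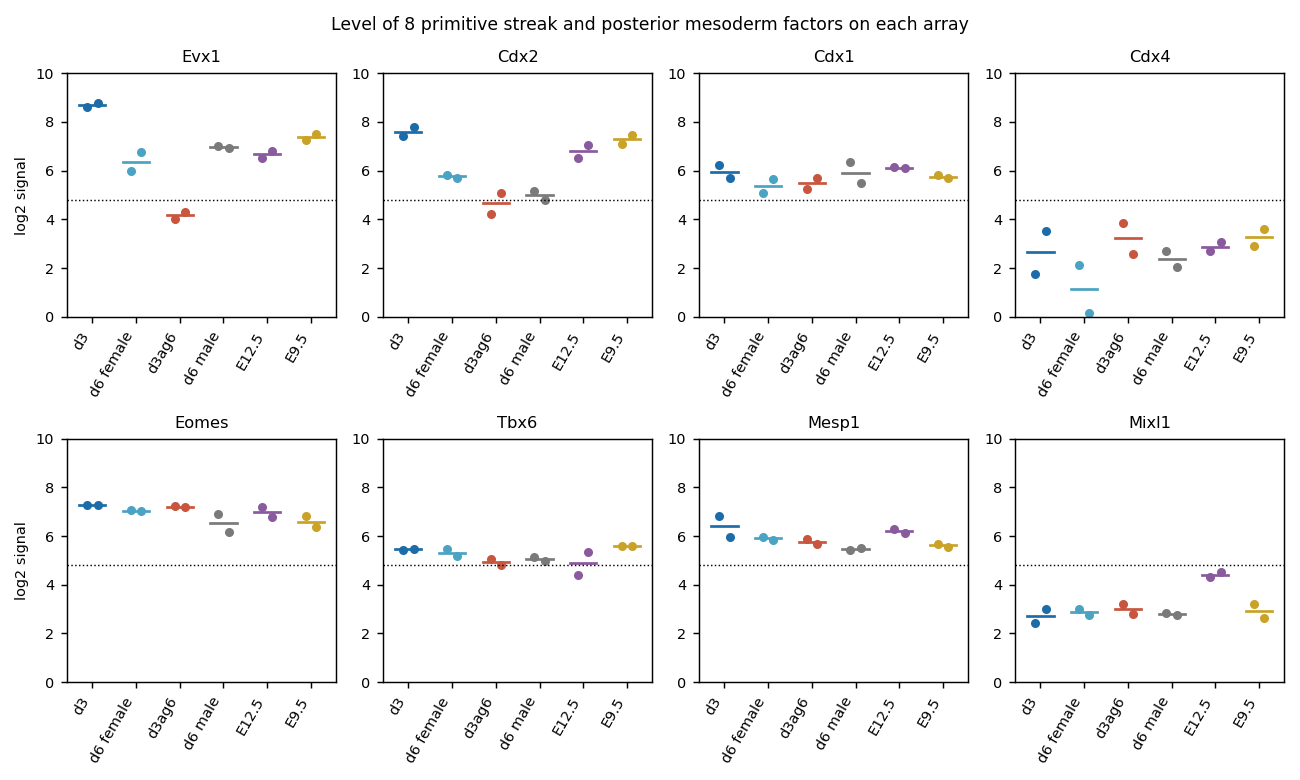
Log2 signal (y axis) of the 8 measured members in the 6 groups (x axis), 1 panel per gene; points are arrays, bars are group means and the dotted line is 4.81, the median of all values. Evx1 is highest in d3 (8.60 and 8.76) and lowest in d3ag6 (4.02 and 4.30), Cdx2 is high in d3, E12.5 and E9.5, and Cdx4 and Mixl1 lie under the line on every array.

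Cdx1 (probe set 1449582_at), a second caudal factor, on chromosome 18 at 61018862 to 61036199, had group means within 0.75 of each other. It was at 6.22 and 5.69 in d3, 5.10 and 5.65 in d6 female, and 5.26 and 5.71 in d3ag6. It was at 6.34 and 5.48 in d6 male, 6.13 and 6.11 in E12.5 and 5.82 and 5.69 in E9.5. Each group overlapped its neighbour in the order of means, but both E12.5 arrays lay above those of E9.5, d3ag6 and d6 female. Both d6 female arrays lay below those of d3 and E9.5, and no difference of Cdx1 was called.

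Cdx4 (probe set 1421552_at), the X-linked caudal factor at 103321398 to 103330224 of chromosome X, lay below 4.81 on all 12 arrays. It was at 1.77 and 3.54 in d3, 2.14 and 0.16 in d6 female, and 3.85 and 2.60 in d3ag6. It was at 2.70 and 2.03 in d6 male, 2.69 and 3.08 in E12.5 and 2.92 and 3.62 in E9.5. The arrays of 1 group lay far apart in d3 and in d6 female, and neighbouring groups overlapped throughout.

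Eomes (probe set 1426001_at), a T-box factor on chromosome 9 at 118478186 to 118486132 that acts in trophoblast and in the early streak, had group means within 0.73 of each other. It was at 7.26 and 7.25 in d3, 7.07 and 7.01 in d6 female, and 7.22 and 7.18 in d3ag6. It was at 6.89 and 6.17 in d6 male, 7.19 and 6.77 in E12.5 and 6.80 and 6.35 in E9.5. All these arrays were above 4.81, and the female PGCLC groups were the narrowest.

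Tbx6 (probe set 1449868_at), the T-box factor that directs cells to presomitic mesoderm, lies on chromosome 7 at 126781483 to 126785548. Its levels were 5.43 and 5.47 in d3, 5.46 and 5.16 in d6 female, and 5.05 and 4.80 in d3ag6. They were 5.14 and 4.96 in d6 male, 4.41 and 5.35 in E12.5 and 5.58 and 5.58 in E9.5. The E9.5 arrays were the highest of the 12, and the E12.5 pair spanned most of the range of the others.

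Mesp1 (probe set 1426557_at), a basic helix-loop-helix factor of nascent mesoderm and heart precursors, lies on the same chromosome at 79792241 to 79793590. Its levels were 6.83 and 5.96 in d3, 5.97 and 5.84 in d6 female, and 5.87 and 5.66 in d3ag6. They were 5.43 and 5.49 in d6 male, 6.29 and 6.13 in E12.5 and 5.68 and 5.57 in E9.5. The first d3 array was the highest and the second d3 array lay below both E12.5 arrays, so the d3 pair spanned the E12.5 pair.

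Mixl1 (probe set 1421505_at), a paired-type homeobox factor of the streak and endoderm on chromosome 1 at 180693043 to 180697034, was dim on every array. It was at 2.44 and 3.00 in d3, 3.02 and 2.77 in d6 female, and 3.19 and 2.78 in d3ag6. It was at 2.83 and 2.76 in d6 male, 4.31 and 4.51 in E12.5 and 3.21 and 2.62 in E9.5. The E12.5 arrays stood above the other 10, and all 12 lay under 4.81.

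The first comparison follows female PGCLCs over 3 more days of culture. Evx1 and Cdx2 fell, and the other 4 members tested did not pass the test. Called lower were 2 of 6 members, where 4.06% of all 13436 genes tested were called, 1.72% higher and 2.34% lower. The median difference of the 6 was -0.54, beside -0.01 for all genes. Evx1 averaged 6.38 ± 0.56 in d6 female and 8.68 ± 0.11 in d3 (SD), a difference of -2.31 (SE 0.26, 95% confidence interval -2.88 to -1.73), which is 4.94-fold lower, with an adjusted p of 0.00287 in limma. Cdx2 averaged 5.77 ± 0.10 in d6 female and 7.61 ± 0.29 in d3, a difference of -1.84 (SE 0.31, 95% confidence interval -2.55 to -1.13), with an adjusted p of 0.0148 in limma. Both d6 female arrays lay below both d3 arrays for each gene. The Evx1 call held with each of the 4 arrays left out in turn, with limma adjusted p between 0.00437 and 0.0211, but not when only the arrays of d6 female and d3 were fitted (same difference, adjusted p 0.0563). The Cdx2 call did not hold with arrays left out: its adjusted p was 0.0529 without the first d3 array, 0.0641 without the second, 0.0898 without the first d6 female array and 0.0820 without the second.

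A second probe set was present for Cdx2 and for Eomes, and in both cases it gave another picture of the d3 to d6 step. Cdx2 probe set 1422074_at had signals of 3.43 and 3.83 in d6 female, against 3.27 and 4.62 in d3, a difference of -0.32 with an adjusted p of 0.879 in limma. That probe set was above 4.81 on 1 of the 12 arrays, an E9.5 array at 5.21. Eomes probe set 1435172_at had signals of 3.16 and 4.79 in d6 female, against 6.64 and 5.99 in d3. Taken in place of the brighter probe set it gave a difference of -2.34 (SE 0.47, adjusted p 0.0300 in limma), whereas the brighter one gave -0.22 (SE 0.26, adjusted p 0.762 in limma). With all probe sets of a gene averaged, Cdx2 was not called (difference -1.08, adjusted p 0.141 in limma) and Eomes was (-1.28, adjusted p 0.0262), so that 2 members were called but not the same 2. The Eomes probe sets thus differed on whether the gene fell over this step, and the brighter Cdx2 probe set is the one that did.

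**Figure D2:**
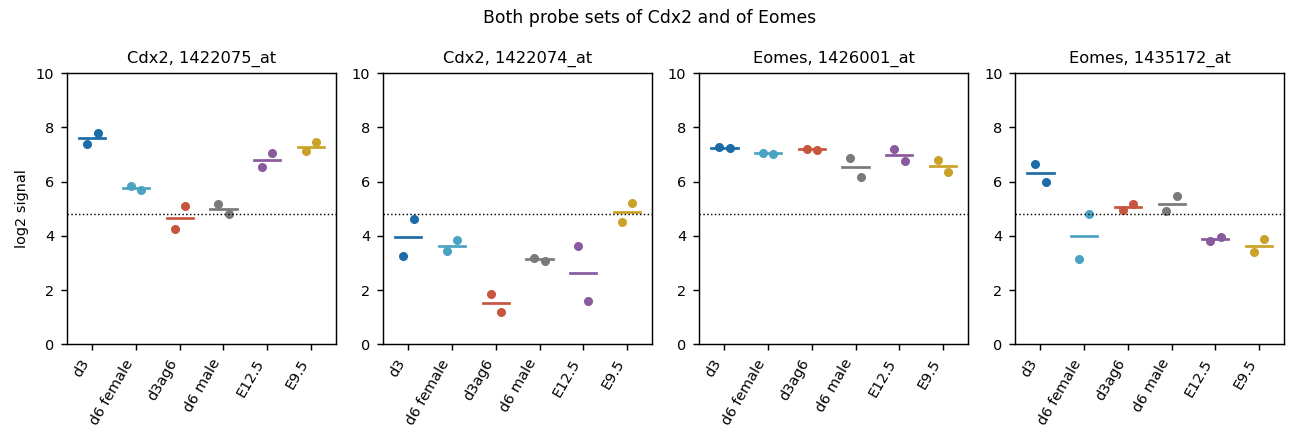
Log2 signal (y axis) of both probe sets of Cdx2 and of Eomes in the 6 groups (x axis); points are arrays, bars are group means and the dotted line is 4.81. Eomes 1426001_at is near 7 in all groups, whereas 1435172_at is at 6.64 and 5.99 in d3 and lower on every other array; Cdx2 1422074_at is dim on 11 of 12 arrays.

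The remaining members moved by less over this step. The differences of d6 female from d3 were -0.58 for Cdx1 (95% confidence interval -1.30 to 0.14), -0.49 for Mesp1 (-1.06 to 0.08) and -0.14 for Tbx6 (-0.76 to 0.49). Their adjusted p in limma was between 0.395 and 0.876. Mesp1 passed the test without the second d3 array, with -0.93 and an adjusted p of 0.0423. Of 11 tested markers of trophoblast, a lineage in which Cdx2 and Eomes also act, Krt8 and Krt18 fell and Krt7 rose, with a median difference of 0.00. The 12 trophoblast markers summed to 1623 to 1786 in d6 female, against 3169 to 4221 in d3, with 8 of the 12 in d6 female and 9 in d3 above 4.81 on both arrays. The keratin gene Krt8 was at 6.24 and 6.03 in d6 female, against 10.09 and 10.66 in d3, and Krt7 averaged 8.25 ± 0.17 in d6 female and 7.04 ± 0.21 in d3. The 16 endoderm markers summed to 6050 to 6589 in d6 female, against 8988 to 9943 in d3, with 12 of the 16 in d6 female and 11 in d3 above 4.81. Of 15 endoderm markers tested 3 fell, the keratins Krt8 and Krt18 and the tight junction gene Cldn6, and the median difference was -0.07. Their part in the results was not tested, and in sorted bulk samples fewer cells with a transcript cannot be told apart from less of it per cell.

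Aggregation of d3 cells with gonadal somatic cells was followed by the lowest Evx1 level of the series. In d3ag6 against d3, Evx1 and Cdx2 fell, 2 of 6 members, where 10.6% of all genes were called, 5.81% higher and 4.84% lower. The median difference of the 6 members was -0.58, beside 0.00 for all genes. Evx1 averaged 4.16 ± 0.20 in d3ag6 and 8.68 ± 0.11 in d3, a difference of -4.52 (SE 0.26, adjusted p 6.2e-05 in limma), with both d3ag6 arrays far below both d3 arrays. Because the d3ag6 mean is under 4.81, its distance was also taken with all dim values set to that level, which gave -3.87 (adjusted p 4.7e-05 in limma). Cdx2 averaged 4.66 ± 0.60 in d3ag6 and 7.61 ± 0.29 in d3, a difference of -2.94 (SE 0.31, 95% confidence interval -3.65 to -2.24, adjusted p 0.000787 in limma), and -2.66 with dim values set to 4.81. Both calls held with each array left out, with limma adjusted p of at most 0.00109 for Evx1 and 0.00868 for Cdx2. Mesp1 did not pass (difference -0.64, adjusted p 0.160 in limma), but did so without the second d3 array (-1.07, adjusted p 0.0178). Tbx6 differed by -0.53, Cdx1 by -0.47 and Eomes, with its brighter probe set, by -0.06, with adjusted p between 0.288 and 0.937 in limma. For Eomes the dimmer probe set gave -1.26 and did not pass either (adjusted p 0.140 in limma). The 13 gonadal somatic markers, of which 7 in d3ag6 and 5 in d3 were above 4.81 on both arrays, summed to 737 to 793 in d3ag6, against 564 to 645 in d3. Trophoblast markers went both ways: of 11 tested, Krt8, Krt18, Gata3 and Plac1 fell and Krt7, Ascl2 and Fgfr2 rose, with a median difference of -0.33. Their sum, to which bright genes add most, was 1638 to 2061 in d3ag6, against 3169 to 4221 in d3, and the part of either list in these results was not tested.

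Set against d6 female cells, d3ag6 cells were lower in Evx1. It was the only one of 6 members called, where 6.39% of all genes were called, 4.03% higher and 2.36% lower. The Evx1 mean was 4.16 ± 0.20 in d3ag6 and 6.38 ± 0.56 in d6 female, a difference of -2.22 (SE 0.26, 95% confidence interval -2.80 to -1.64), and its adjusted p of 0.00245 in limma stayed at or under 0.0227 with each array left out. The groups did not overlap, and the difference was -1.56 (adjusted p 0.00749 in limma) with dim values set to 4.81. Cdx2 had 4.24 and 5.09 in d3ag6, against 5.83 and 5.70 in d6 female, without overlap, yet its difference of -1.10 (95% confidence interval -1.81 to -0.40) had an adjusted p of 0.0746 in limma. When all probe sets of a gene were averaged, that difference was -1.60 with an adjusted p of 0.0280. With the brighter Eomes probe set, the other 4 members lay within 0.39 of zero in either direction. The dimmer Eomes probe set gave a larger difference, 1.075, which did not pass (adjusted p 0.218 in limma). These 3 comparisons share arrays, so their values are not independent of each other.

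Against E12.5 PGCs of female embryos, the cells that the aggregates are set beside in the design, d3ag6 cells were lower in Evx1 and in Cdx2. These were 2 of 6 members, where 9.03% of all genes were called, 5.95% higher and 3.07% lower. Evx1 was at 4.02 and 4.30 in d3ag6, against 6.53 and 6.81 in E12.5, a difference of -2.51 (SE 0.26, adjusted p 0.000773 in limma). Cdx2 was at 4.24 and 5.09 in d3ag6, against 6.53 and 7.06 in E12.5, a difference of -2.13 (SE 0.31, adjusted p 0.00438 in limma). Neither gene overlapped between the groups, and both calls held with each array left out, with limma adjusted p of at most 0.0108 for Evx1 and 0.0431 for Cdx2. Both d3ag6 means were under 4.81, and with dim values set to that level the differences were -1.86 for Evx1 and -1.84 for Cdx2. The dimmer Cdx2 probe set had 1.86 and 1.19 in d3ag6, against 3.62 and 1.61 in E12.5, and did not pass (difference -1.09, adjusted p 0.365 in limma). Mixl1, untested because it was dim, was at 3.19 and 2.78 in d3ag6, against 4.31 and 4.51 in E12.5, and in a fit of all 18194 genes without the filter its difference of -1.42 had an adjusted p of 0.0268 in limma. Cdx1, Eomes with its brighter probe set, Mesp1 and Tbx6 differed by between -0.64 and 0.22, with adjusted p of at least 0.281 in limma. Eomes differed by 1.17 with its dimmer probe set, again without passing (adjusted p 0.178 in limma). Blood and macrophage markers summed to 2206 to 2709 in d3ag6, against 678 to 790 in E12.5, with 7 of 11 in d3ag6 and 6 in E12.5 above 4.81. They went both ways: of 9 tested, 4 were higher in d3ag6 (Lyz2, Lyz1, Tyrobp and Ctss) and 2 lower, the globins Hba-x and Hbb-y. Gonadal somatic markers summed to 737 to 793 in d3ag6, against 497 to 513 in E12.5. Their part in the differences was not tested.

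**Figure D3:**
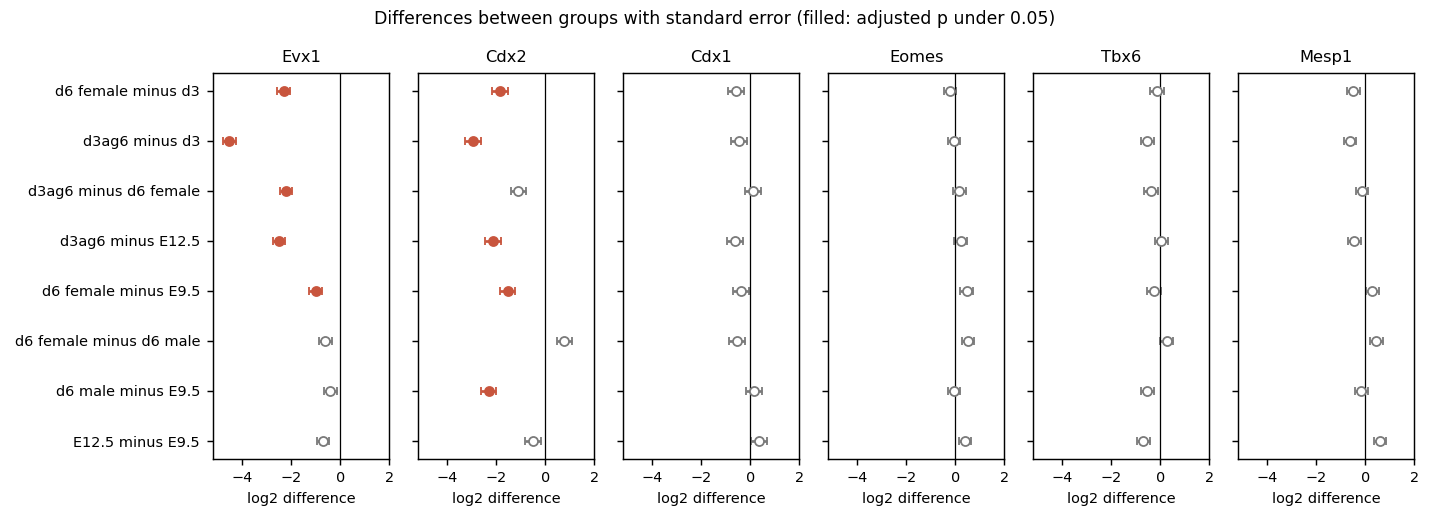
Difference of group means in log2 signal (x axis) for the 6 members tested in the 8 comparisons (y axis), with the standard error as bars; filled points have an adjusted p under 0.05 in limma. Filled points are all negative and belong to Evx1 (5 comparisons) and Cdx2 (5 comparisons); the largest is -4.52, Evx1 in d3ag6 minus d3.

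Culture cells at day 6 were also set against E9.5 PGCs, the migrating stage. In d6 female cells Cdx2 and Evx1 were called lower, 2 of 6 members, where 13.9% of all genes were called, 8.33% higher and 5.6% lower. Cdx2 averaged 5.77 ± 0.10 in d6 female and 7.29 ± 0.25 in E9.5, a difference of -1.53 (SE 0.31, adjusted p 0.0136 in limma). Evx1 averaged 6.38 ± 0.56 in d6 female and 7.38 ± 0.19 in E9.5, a difference of -0.999 (SE 0.26, adjusted p 0.0332 in limma). The groups did not overlap for either gene, but both calls were lost with an array left out. For Cdx2 the difference was -1.60 (adjusted p 0.0636) without the first d6 female array, -1.46 (0.0790) without the second and -1.35 (0.0665) without the second E9.5 array, close to that with all arrays. For Evx1 it was -0.60 (adjusted p 0.183) without the first d6 female array, -1.13 (0.0640) without the first E9.5 array and -0.87 (0.132) without the second. Of 10 tested mesenchyme markers, 6 fell in d6 female against E9.5 and none rose, with a median of -1.98, and their part was not tested. Here array code and group cannot be told apart.

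Male day 6 cells give the comparison with E9.5 in which each array code held 1 array of both groups. Cdx2 fell, the only one of 6 members called, where 10.6% of all genes were called, 6.04% higher and 4.55% lower. It was at 5.18 and 4.79 in d6 male, against 7.11 and 7.47 in E9.5, with both d6 male arrays below every embryonic array. The difference was -2.30 (SE 0.31, 95% confidence interval -3.01 to -1.60), or 4.94-fold lower, with an adjusted p of 0.00246 in limma. Within code EA0831 the difference was -1.93 and within EA0842 it was -2.68. With the array code as a block the adjusted p was 0.00365, and with each array left out it was at most 0.0198. Evx1 was at 7.02 and 6.93 in d6 male, against 7.24 and 7.51 in E9.5, a difference of -0.40 (95% confidence interval -0.98 to 0.18, adjusted p 0.424 in limma), and of -0.22 and -0.58 within the codes. The dimmer Cdx2 probe set had 3.19 and 3.06 in d6 male, against 4.51 and 5.21 in E9.5, without overlap and without passing (difference -1.74, adjusted p 0.135 in limma). Blood and macrophage markers summed to 339 to 390 in d6 male and 458 to 467 in d6 female, against 7264 to 16124 in E9.5. Mesenchyme markers moved with the Cdx2 difference: 6 of 10 tested fell in d6 male against E9.5 and none rose, with a median of -2.12, and Twist1, a factor of mesenchyme, averaged 3.56 ± 0.49 in d6 male and 7.45 ± 1.66 in E9.5. None of these 6 calls held with every array left out in turn, and the summed signal, 4080 to 4099 in d6 male against 3427 to 6770 in E9.5, overlapped. Endothelial markers summed to 4062 to 4266 in d6 male and 1897 to 3003 in d6 female, against 2129 to 2387 in E9.5, with 4 of 10 tested higher and none lower in d6 male. The part of these cells in the Cdx2 difference was not tested.

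No member was called between the sexes at day 6, where 1.47% of all genes were, 0.968% higher and 0.499% lower. At an unadjusted p under 0.05 in limma 2 of the 6 differed. Evx1 was at 5.98 and 6.77 in d6 female, against 7.02 and 6.93 in d6 male (difference -0.60, 95% confidence interval -1.18 to -0.02, adjusted p 0.259 in limma). Cdx2 was at 5.83 and 5.70 in d6 female, against 5.18 and 4.79 in d6 male (difference 0.78, 95% confidence interval 0.07 to 1.49, adjusted p 0.237 in limma). The pairs did not overlap for either gene, in opposite directions, and code and sex cannot be told apart here.

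No member was called between E12.5 and E9.5 either, where 23.6% of all genes were, 12.9% higher and 10.7% lower. With only 6 members tested, the lack of a call does not set them apart from that share. At an unadjusted p under 0.05 in limma 3 of the 6 differed. Evx1 was at 6.53 and 6.81 in E12.5, against 7.24 and 7.51 in E9.5 (difference -0.71, adjusted p 0.0765 in limma). That call depended on the settings: the difference was -0.84 with an adjusted p of 0.0442 on the values as deposited, and the adjusted p was 0.0386 with the replicate number as a block. Tbx6 was at 4.41 and 5.35 in E12.5, against 5.58 and 5.58 in E9.5 (difference -0.69, adjusted p 0.100 in limma), and passed without the second E12.5 array (-1.17, adjusted p 0.0161). Mesp1 was at 6.29 and 6.13 in E12.5, against 5.68 and 5.57 in E9.5 (difference 0.59, adjusted p 0.126 in limma). Cdx2 did not pass with its brighter probe set (difference -0.50, adjusted p 0.281 in limma), whereas with 1422074_at, at 3.62 and 1.61 in E12.5 against 4.51 and 5.21 in E9.5, the difference was -2.25 with an adjusted p of 0.0329. Mixl1, at 4.31 and 4.51 in E12.5 against 3.21 and 2.62 in E9.5, was called higher in the fit of all genes without the filter (difference 1.495, adjusted p 0.0107 in limma). Code and stage cannot be told apart here.

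The difference of d3ag6 from d6 female was also set against that of E12.5 from E9.5, here called the contrast of the later steps. The d3ag6 cells came from d3 cells, not from d6 female cells, and spent 6 days in aggregates with somatic cells. Their difference from d6 female is therefore not a step in time, and culture time and aggregation cannot be told apart in it. The difference of d3ag6 from d6 female minus that of E12.5 from E9.5 was -1.51 for Evx1 (SE 0.36, 95% confidence interval -2.33 to -0.69, adjusted p 0.0448 in limma). Evx1 was the only one of 6 members called, where 5.75% of all genes were called, 3.28% higher and 2.47% lower. The Evx1 difference was -2.22 in d3ag6 against d6 female, and -0.71 in E12.5 against E9.5, where it did not pass. The call was lost in 7 of 8 fits that left out 1 array, with adjusted p up to 0.156, and with dim values set to 4.81 (difference -0.86, adjusted p 0.183 in limma). For Cdx2 the same contrast was -0.60 (95% confidence interval -1.61 to 0.40, adjusted p 0.491 in limma).

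Genes around the streak programme were read from 8 lists drawn up by role, and their counts are a description. Of 16 tested ligands and antagonists that induce or limit the streak, 6 fell and none rose in d6 female against d3, with a median difference of -0.90, and 7 fell and none rose in d3ag6 against d3, with a median of -1.18. With each array left out in turn, 1 of the 6 calls (Wnt5a) and 3 of the 7 (Wnt5a, Wnt5b and Bmp4) held throughout. Wnt5a, a WNT ligand of the posterior embryo, was at 3.27 ± 1.02 in d6 female and 8.57 ± 0.15 in d3 (adjusted p 0.00246 in limma). Bmp4, the BMP ligand that induces PGCs in the mouse, was at 6.67 ± 0.30 in d3ag6 and 8.93 ± 0.04 in d3 (difference -2.26, SE 0.25, adjusted p 0.000886 in limma). Against PGCs this list went both ways. In d6 female against E9.5, where code and group cannot be told apart, 4 were higher and 4 lower. In d3ag6 against E12.5, 3 were higher and 1 lower. Lefty1, among the higher genes in both, averaged 10.38 ± 0.34 in d6 female and 7.43 ± 0.09 in E9.5. It averaged 10.76 ± 0.44 in d3ag6 and 7.04 ± 0.15 in E12.5. Of 27 receptors and effectors of these pathways, none was called in d6 female against d3, where 6 had an unadjusted p under 0.05 in limma, and 2 rose and 1 fell in d3ag6 against d3. The receptors and effectors had a median difference of 0.00 in d6 female against d3 and 0.07 in d3ag6 against d3.

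Of 12 tested WNT feedback and target genes, 4 fell and none rose in d6 female against d3, and 3 fell and none rose in d3ag6 against d3. None of those 4 calls and 1 of those 3 (Notum) held with every array left out in turn. In E12.5 against E9.5, 4 rose and 1 fell (2 and 1 with every array left out in turn), with a median difference of 0.36 beside 0.08 for all genes. Sp5, a direct WNT target, was at 8.32 and 7.87 in E12.5, against 6.07 and 4.82 in E9.5 (difference 2.65, adjusted p 0.00289 in limma), and Axin2, the feedback inhibitor, at 10.09 and 10.21 in E12.5, against 8.74 and 7.53 in E9.5 (difference 2.02, adjusted p 0.00706). Sp5 was also the target that rose in d3ag6 against d6 female, with 6.89 and 7.84 in d3ag6, against 4.64 and 4.13 in d6 female (difference 2.98, SE 0.43, adjusted p 0.00581 in limma). Sp8, the gene of this list that fell, averaged 4.40 ± 0.07 in E12.5 and 6.84 ± 0.12 in E9.5 (adjusted p 0.000531 in limma). Sp5 and Axin2 thus stood higher at E12.5 than at E9.5 and Sp8 lower, while Evx1 and Cdx2 were not called. Code and stage cannot be told apart here.

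Among the 12 tested genes of the posterior growth zone, the tissue that extends the trunk, those called against d3 and E9.5 were lower, and Greb1 was called higher in d3ag6 against d6 female. Between d6 female and d3, 5 fell and none rose (median -1.26), and in d3ag6 against d3, 6 fell and none rose (median -1.27). Between d6 female and E9.5, 6 fell and none rose (median -2.29), in d6 male against E9.5, 5 fell and none rose (median -1.61), and in E12.5 against E9.5, 7 fell and none rose (median -1.54). With every array left out in turn, 3 of the 5, 3 of the 6, 5 of the 6, 5 of the 5 and 5 of the 7 calls held. In d3ag6 against d6 female, 1 rose and none fell (median 0.39), namely Greb1, which averaged 6.08 ± 0.45 in d3ag6 and 4.69 ± 0.19 in d6 female (adjusted p 0.0249 in limma), a call lost with arrays left out. In the contrast of the later steps, 4 were called higher and none lower (Nkx1-2, Hoxb1, Greb1 and Hoxd9, median 1.48), the direction opposite to Evx1, and these calls held with every array left out. All 4 were called lower in E12.5 against E9.5, and only Greb1 was called in d3ag6 against d6 female. A positive contrast of these genes therefore does not mean that they rose in the aggregates. The E9.5 arrays carried other array codes than the other groups of the contrast, and the part of the code was not tested. The medians of all genes in the 5 comparisons with d3 or E9.5 lay between -0.01 and 0.08. Nkx1-2, a homeobox gene of that tissue, was at 8.52 and 8.52 in d3, 4.10 and 5.04 in d6 female, and 5.39 and 5.46 in d3ag6. It was at 4.02 and 3.55 in d6 male, 4.91 and 4.84 in E12.5 and 8.83 and 8.84 in E9.5. High Nkx1-2 was thus found in d3 and E9.5 alone, with a gap of more than 3 log2 units to every other array. Its difference was -3.95 in d6 female against d3 (SE 0.28, adjusted p 0.000538 in limma) and -3.96 in E12.5 against E9.5 (adjusted p 6.3e-05). Hoxb1, the Hox gene of the early posterior embryo, averaged 2.60 in d6 female and 6.70 in E9.5 (difference -4.11, adjusted p 0.000315 in limma).

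Presomitic and paraxial mesoderm genes, the programme downstream of Tbx6, were called lower in each comparison with E9.5. Of 15 tested, 2 fell and none rose in d6 female against d3, whereas 7 fell and none rose in d6 female against E9.5, 8 fell and none rose in d6 male against E9.5, and 5 fell and none rose in E12.5 against E9.5. Of these, 1 of the 2, 5 of the 7, 4 of the 8 and none of the 5 calls held with every array left out in turn. In d3ag6, by contrast, Aldh1a2 and Dll1, a Notch ligand of presomitic mesoderm, were called higher: 2 rose and 2 fell against d3, and 2 rose and 1 fell against d6 female. The Aldh1a2 call against d3 and the Dll1 call against d6 female were lost with arrays left out. Both genes were also called higher in the contrast of the later steps, with none lower, but not both of these calls held with every array left out in turn. Aldh1a2 averaged 8.39 ± 0.23 in d3ag6 and 6.35 ± 0.52 in d6 female (difference 2.04, adjusted p 0.0113 in limma), a call lost with arrays left out. Aldh1a2, which makes retinoic acid in paraxial mesoderm, averaged 6.35 in d6 female and 9.60 in E9.5 (difference -3.25, adjusted p 0.000697 in limma), and Cdh2, N-cadherin, differed by -2.61 (adjusted p 0.00140). Mesenchyme markers, which such genes accompany in the embryo, were above 4.81 on both arrays for 6 of 11 in d6 female, 7 in d6 male and 3 in E12.5, against 10 in E9.5, and their part was not tested. In d6 female against d3, lateral and extraembryonic mesoderm had 1 of 16 genes higher and 2 lower, and anterior streak, node and definitive endoderm had 1 of 11 higher and none lower. The higher gene of the anterior list was Lhx1, a LIM homeobox gene, at 7.08 and 6.79 in d6 female, against 4.18 and 4.67 in d3 (difference 2.51, SE 0.22, adjusted p 0.00123 in limma). Of 6 other T-box genes, 1 fell, Tbx3, which averaged 4.08 ± 0.39 in d6 female and 7.25 ± 0.17 in d3 (difference -3.18, adjusted p 0.00407 in limma). Of the listed genes named with a difference, Wnt5a, Bmp4, Sp5, Axin2, Nkx1-2, Hoxb1, Cdh2, Lhx1 and Tbx3 kept that call with each array left out, as did Aldh1a2 in d6 female against E9.5.

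**Figure D4:**
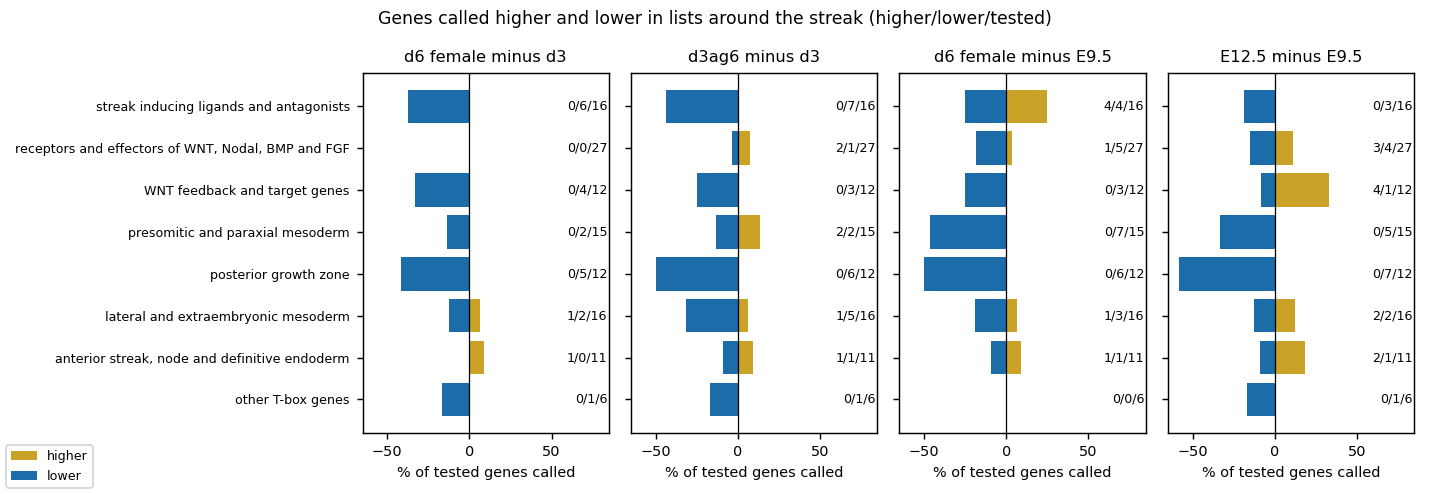
Share of tested genes called (x axis, percent; lower to the left, higher to the right) in 8 lists around the streak (y axis) for 4 comparisons; the numbers give genes higher, lower and tested. The posterior growth zone list has 5 to 7 of 12 genes lower and none higher in each comparison.

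The genes whose levels followed Evx1 most closely over the 12 arrays were Prtg (Pearson's r 0.964), Bambi (0.956), Rspo3 (0.925), Tapbpl (0.917) and Hoxa10 (0.895). They are the 5 highest among the tested genes, with members and genes of provisional name left out, and are a description over arrays that share groups. Tapbpl was above 4.81 on the d3 arrays alone (4.83 and 5.22), so it was tested only through the group where Evx1 is highest. Hoxa10 was above that level only in d3 and E9.5. Prtg encodes protogenin, a membrane protein of the immunoglobulin superfamily, and was at 7.44 and 8.04 in d3ag6, against 10.30 and 10.55 in d3. Bambi, a decoy receptor that dampens BMP signals, was at 7.56 and 7.87 in d3ag6, against 9.31 and 9.91 in d3. Rspo3, a secreted amplifier of WNT signals, was at 3.65 and 2.94 in d3ag6, against 8.27 and 7.74 in d3. Like Evx1, each of these 3 was lowest in d3ag6 and highest in d3, with the other groups between.

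**Figure D5:**
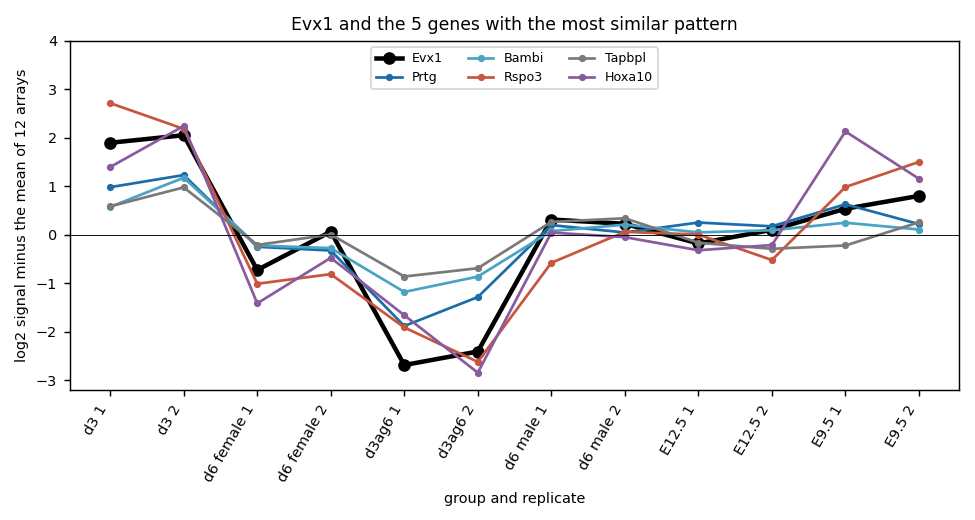
Log2 signal minus the gene's mean over 12 arrays (y axis) for Evx1 and the 5 genes with the highest correlation to it, members and genes of provisional name left out, on each array (x axis, group and replicate). All 6 genes are above their mean in d3 and below it in d3ag6; Pearson's r to Evx1 is 0.895 to 0.964.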

How the data were processed

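For every array, the authors deposited log2 signals of 45101 probe sets. The log base was read from the range of the values, and the summarisation and normalization that the authors used are not given in the sources used here. Per the labels' protocols, cDNA from 5 ng of RNA, the amount in 500 cells, went through 12 cycles of a first PCR, which can widen the spread of dim genes. Array medians were 4.73 to 4.87, and replicates correlated at 0.969 to 0.990 over genes, with none identical.

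Values were quantile normalized and tested with limma 3.58.1 in R 4.3.3, with 1 mean per group over all 12 arrays, 6 residual degrees of freedom and eBayes. Probe sets annotated with 1 gene (34958; 932 had several and 9211 none) were used, 34754 of them matched to RefSeq by gene ID. Testing required a value over 4.81 on 2 or more arrays. Tests were two-sided, with Benjamini-Hochberg adjustment over all genes tested in each comparison. Of 210 genes in 15 lists, 202 were on the arrays. The members and lists were chosen with earlier results of these data known. Most list genes named are among the first 3 called in order of adjusted p, and others complete the calls of a list. For Evx1, the member with the widest range, the 5 genes most like it were also named. Same-numbered arrays of E9.5 and d6 male share an array code in the labels, and their deviations correlated at 0.547; the other groups share only a number. Other steps used pandas 2.3.3, numpy 2.4.6 and matplotlib 3.10.9 under Python 3.11.15. The fit was tested on simulated data.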

Additional observations from a re-analysis of the deposited data

Results flagged for a closer look

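For Evx1, the contrast of d3ag6 against d6 female with E12.5 against E9.5 passed, though under few other settings. The d3ag6 cells did not come from d6 female cells, so the first difference is not a step in time. Its level was 4.16 ± 0.20 in d3ag6 and 6.38 ± 0.56 in d6 female, and 6.67 ± 0.20 in E12.5 and 7.38 ± 0.19 in E9.5 (SD, n = 2 each). The contrast of these differences was -1.51 on the log2 scale, with an adjusted p of 0.0448 in limma. Over the fits that left out 1 array it lay between -1.90 and -1.11, with adjusted p between 0.0211 and 0.156 in limma, and the call was kept only without the first d6 female array. With dim values set to 4.81, a level above the d3ag6 mean, it was -0.86 (adjusted p 0.183 in limma). The call was also lost with no filter (adjusted p 0.0871), on the values as deposited (0.0776), with probe sets averaged (0.0513) and with only the arrays compared (0.0788). The E9.5 arrays carried other array codes than the remaining 3 groups, and the part of the code was not tested.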

How the results depend on the processing

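No called difference of a member changed direction under the alternatives run. The number of members called was 1 in d6 female against d3 with the filter at the 75th percentile or with only the arrays compared, and 1 to 2 with an array left out. With that filter, which kept fewer members, it was 1 in d3ag6 against d3 (2 to 3 with an array left out), 1 in d3ag6 against E12.5, 1 in d6 female against E9.5 and 0 in d6 male against E9.5. In d6 female against E9.5 it was also 1 with no filter, with only the arrays compared and with a 2-fold change required, and 0 to 1 with an array left out. Averaging all probe sets left 2 in d6 female against d3, with Eomes called and Cdx2 not, and gave 2 in d3ag6 against d6 female. In E12.5 against E9.5 it was 1 with no filter (Mixl1, higher), with the values as deposited, with all probe sets averaged and with the replicate number as a block, and 0 to 1 with an array left out. For the contrast of the steps it was 0 with no filter, as deposited, with all probe sets averaged, with only the arrays compared and with dim values set to 4.81, and 0 to 1 with an array left out. The causes of these changes were not tested. The replicate block changed no other call of a member. A fit of only the arrays coded EA1013, chosen after seeing the data, changed no count of members called.

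Counts over all genes moved more. In d6 female against d3, 545 genes were called, 313 with no filter, 338 with probe sets averaged and 148 with only the arrays compared, where Evx1 had an adjusted p of 0.0563. In d3ag6 against d3 it was 1430, 765 with only the arrays compared and 905 with a 2-fold change required. In d3ag6 against d6 female it was 859, 419 with no filter and 569 with only the arrays compared. In d3ag6 against E12.5 it was 1213, 775 with no filter, 796 with probe sets averaged and 778 with a 2-fold change. In d6 female against E9.5 it was 1872, 560 with only the arrays compared and 1142 with a 2-fold change. In d6 female against d6 male it was 197, 38 with no filter, 2 with only the arrays compared and 318 with dim values set to 4.81. In d6 male against E9.5 it was 1424 and 291 with only the arrays compared, in E12.5 against E9.5 3170 and 1849 with a 2-fold change, and in the contrast of the steps 773 and 459 with no filter. With an array left out these counts were 112 to 461 in d6 female against d3, 588 to 955 in d3ag6 against d3, 193 to 356 in d3ag6 against d6 female, 363 to 573 in d3ag6 against E12.5, 743 to 1353 in d6 female against E9.5, 12 to 239 in d6 female against d6 male, 849 to 1105 in d6 male against E9.5, 1387 to 2541 in E12.5 against E9.5 and 268 to 789 for the contrast. The shares of all genes beside the members' counts move with them. Signal limits the dim members: Cdx4, Mixl1 and the dimmer Cdx2 probe set have no reliable level here, and groups of 2 arrays leave Cdx2 in d6 female against d3 or E9.5 near the threshold.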
